A study of Saccharomyces cerevisiae with 7 samples.

Results

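The genes described here serve the peroxisome, the organelle in which budding yeast (Saccharomyces cerevisiae) breaks down fatty acids. They were chosen by gene symbol: every probe whose symbol is PEX followed by digits, and the 10 fatty acid oxidation genes POX1, FOX2, POT1, FAA2, PXA1, PXA2, SPS19, ECI1, DCI1 and ANT1. This gave 37 probes for 36 genes, 26 for biogenesis and 10 for oxidation, out of 5470 genes with a symbol on the arrays.

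The data were 7 arrays with 2 channels, 1 array per time point of a culture that used up its glucose. One channel of every array held total RNA of a reference culture at 0.14 OD (optical density) with 19 g/L glucose. The other held RNA taken at 0 h (0.14 OD, 19 g/L glucose), 9.5 h (0.46 OD, 18.7 g/L), 11.5 h (0.80 OD, 17.6 g/L), 13.5 h (1.8 OD, 14 g/L), 15.5 h (3.7 OD, 7.5 g/L), 18.5 h (6.9 OD, 0.2 g/L) and 20.5 h (7.3 OD, 0 g/L). The strain, and whether the samples came from 1 flask or several, are not given in the labels.

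Expression is given as the log2 ratio of culture to reference, each array centred on its median, so 1 is 2-fold above the reference. That direction is likely, not certain, because the labels name no dyes. It rests on the order of the channels and on what is known of the study, and with it 115 ribosomal protein genes had a median of -1.93 at 20.5 h. There were no replicates. The SD between spots of one gene ran from 0.19 at 13.5 h to 0.45 at 18.5 h and was 0.34 at 20.5 h, and it is the nearest measure of error for a single value.

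Yeast oxidises fatty acids only in peroxisomes. Acyl-CoA esters enter through an ABC transporter or are made inside from free fatty acids, and an oxidase, a hydratase-dehydrogenase and a thiolase then shorten the chain, with helper enzymes for unsaturated chains. The enzymes are made in the cytosol and brought in by the PEX proteins: receptors bind a signal at the C-terminus or near the N-terminus, dock at the membrane, release their cargo and are pulled back out with the help of ubiquitin. Genes for these enzymes are textbook targets of glucose repression, and oleate induces them through the factors Oaf1 and Pip2 together with Adr1.

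Both groups stayed close to the reference while glucose was plentiful and stood higher once it was nearly gone. The median log2 ratio of the oxidation genes was -0.14, -0.22, 0.25, 0.05 and 0.02 on the 5 arrays from 0 h to 15.5 h, then 0.53 at 18.5 h and 0.87 at 20.5 h. The median of the biogenesis genes was -0.12, -0.13, 0.12, 0.09 and -0.01 on those arrays, then 0.47 at 18.5 h and 0.51 at 20.5 h. The median of all tested genes lay between 0.01 and 0.03 on every array. The 2 groups thus had like medians up to 18.5 h, where they were 0.07 apart, and were 0.36 apart at 20.5 h. That last gap rests on 1 array and was given no test.

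**Figure D1:**
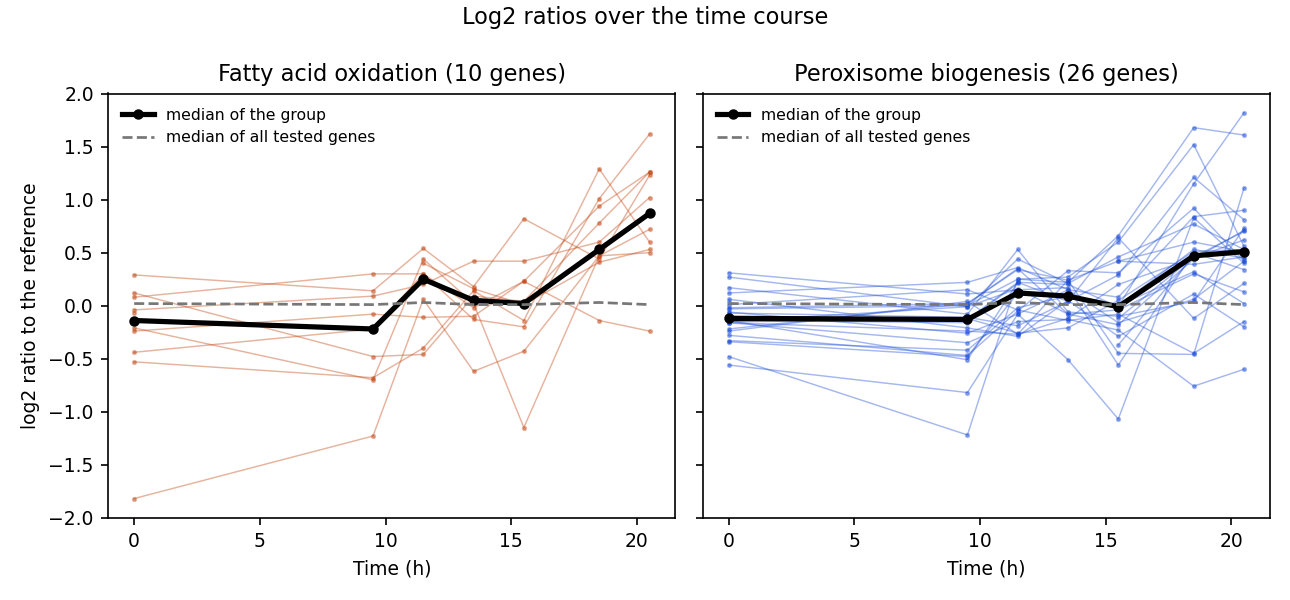
Log2 ratio to the reference (y) against time in h (x) for the 10 oxidation genes (left) and the 26 biogenesis genes (right). Thin lines are single genes, the black line is the median of the group and the dashed line the median of all tested genes; the black lines leave the dashed one after 15.5 h, to 0.87 and 0.51 at 20.5 h.

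The question that the time course allows is which of these genes changed as glucose was consumed. It was asked with a regression of the log2 ratio on how much of the initial glucose had been used, as a share, fitted over 4807 genes with a value on all 7 arrays (limma, Benjamini-Hochberg adjustment over all genes, threshold 0.05). The coefficient, called the fitted change, is the log2 change from 19 to 0 g/L. Of the 36 members 31 were tested, and DCI1, PEX2, PEX18, PEX21 and PEX28 were left out for a blank. Of 9 oxidation genes 6 rose and 0 fell, with a median fitted change of 1.25. Of 22 biogenesis genes 9 rose and 0 fell, with a median of 0.57. Among all 4807 genes 19.5% rose and 19.0% fell, and the median was 0.02. With hours in place of glucose 1 gene of each group rose. Without the 20.5 h array 3 oxidation genes rose, and without the 18.5 h array 4 biogenesis genes did. The share of all genes that rose in these 3 settings is not given here. A loss of calls in the members thus cannot be told from a loss across all genes.

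The oxidation genes thus had the larger median fitted change, by 0.68, and the larger share of risen genes, 66.7% against 40.9%. The ranges overlapped almost wholly, from -0.36 to 1.54 for oxidation and from -0.45 to 1.61 for biogenesis. The difference between the groups has no test here. It came down to 0.29 without the 0 h and 9.5 h arrays, 0.41 without the 20.5 h array, 0.41 with genes with blanks let in and 0.43 with hours in place of glucose. On no single array were the group medians of the log2 ratios, over all members with a value, more than 0.36 apart. Removal of the 0 h and 9.5 h arrays left 2 oxidation genes (PXA2 and SPS19) and 1 biogenesis gene (PEX3) risen, where 7.74% of all genes rose. The p-values measure scatter about a line over 7 samples of one course, not the spread between cultures, and neighbouring samples need not be independent.

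**Figure D2:**
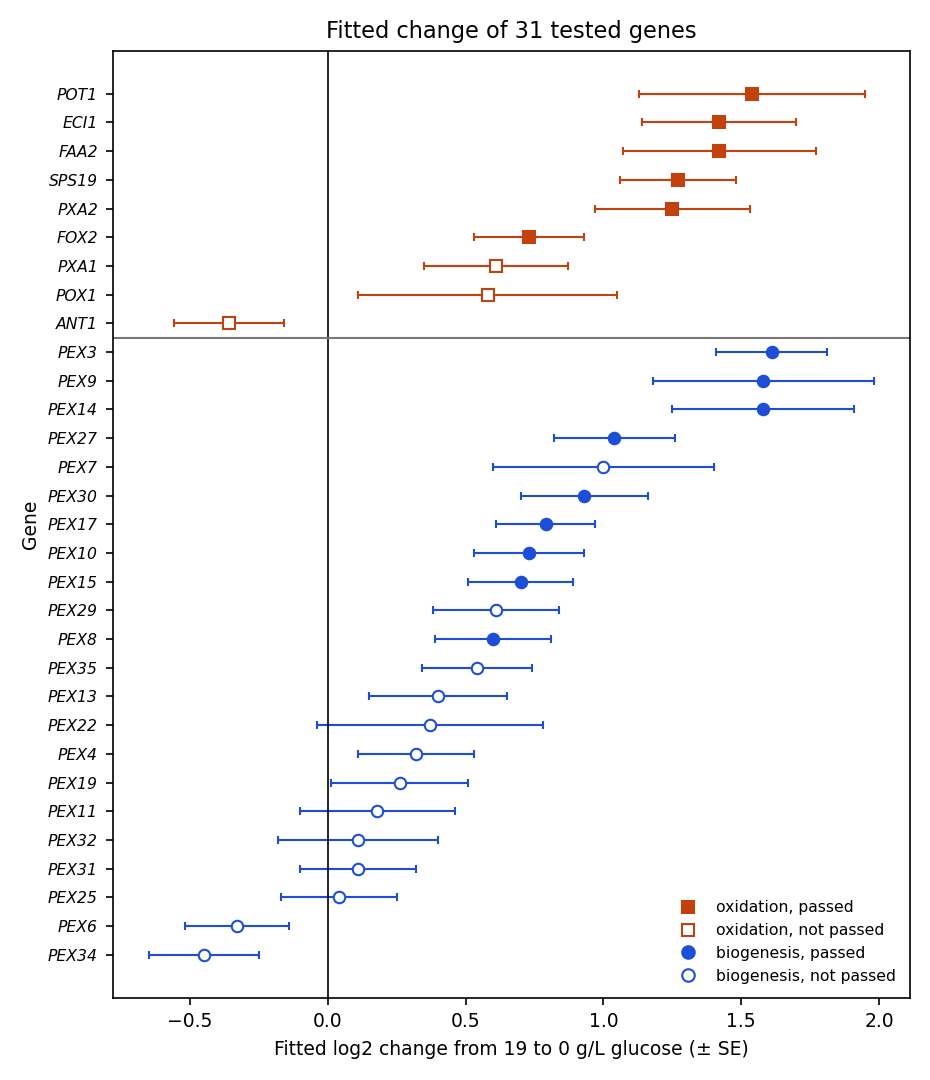
Fitted change with its standard error, on the log2 scale from 19 to 0 g/L (x), for the 31 tested genes (y), squares for oxidation and circles for biogenesis, filled where the gene passed the test. The filled symbols are 6 oxidation and 9 biogenesis genes, all to the right of 0.

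Of the 4 genes that bring in and activate fatty acids, FAA2 and PXA2 rose and PXA1 and ANT1 did not pass. FAA2 (YER015W) encodes the acyl-CoA synthetase that activates medium-chain fatty acids at the peroxisome. In time order its log2 ratios were -0.44, -0.22, 0.30, -0.13, -0.20, 1.01 and 1.62 (0 h to 20.5 h). It was low and uneven through 15.5 h, and both late arrays lay above all 5 earlier ones. FAA2 rose, with a fitted change of 1.42 ± 0.35 (SE, 7 arrays, limma adjusted p = 0.00963), which is 2.68-fold, a call lost when the 20.5 h array was dropped (adjusted p = 0.0717). Its gene overlaps BUD25 in RefSeq, and no probe here was named BUD25.

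PXA1 and PXA2 encode the partner subunits of the ABC transporter that brings long-chain acyl-CoA into the peroxisome. PXA2 (YKL188C) had log2 ratios of 0.12, -0.48, -0.46, 0.09, 0.04, 0.78 and 1.26 from 0 h to 20.5 h. PXA1 (YPL147W) had 0.29, 0.14, 0.54, 0.18, 0.82, 0.44 and 1.23. The partners thus ended at like values, but PXA1 had stood above the reference on every array while PXA2 was below it at 9.5 h and 11.5 h. PXA2 rose by 1.25 ± 0.28 (limma adjusted p = 0.0057), with each array left out in turn as well. PXA1 did not pass (0.61 ± 0.26, adjusted p = 0.0896), and did so without the 18.5 h array (0.96, adjusted p = 0.0234).

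ANT1 (YPR128C), the carrier that brings ATP into the peroxisome for this activation, went the other way in value. It stood at 0.08, 0.30, 0.30, -0.02, 0.23, -0.14 and -0.24 from 0 h to 20.5 h. Both late values were its lowest, by little, and its fitted change of -0.36 ± 0.20 did not pass (adjusted p = 0.169, limma). It was the one oxidation gene with a negative fitted change and the one below the reference on either late array.

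The core cycle enzymes differed in size and shape. POX1 (YGL205W), the acyl-CoA oxidase of the first step, had log2 ratios of -0.21, -0.70, 0.44, 0.02, -1.15, 0.47 and 0.72. Its late values were its highest, yet the low value at 15.5 h put it far from a line. The fitted change was 0.58 ± 0.47 (limma adjusted p = 0.346), and without the 15.5 h array 0.81 (adjusted p = 0.046).

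FOX2 (YKR009C), the hydratase and dehydrogenase of the middle steps, climbed in small moves. It stood at -0.04, 0.09, 0.20, 0.42, 0.42, 0.60 and 1.02, each array at or above the one before. Its fitted change was 0.73 ± 0.20 (1.65-fold, limma adjusted p = 0.0174). Dropping the array of 0 h, 9.5 h or 20.5 h ended the call, with adjusted p of 0.0692, 0.0508 and 0.0848.

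POT1 (YIL160C), the thiolase of the last step, had the largest fitted change among the oxidation genes, 1.54 ± 0.41 (limma adjusted p = 0.0142). Its log2 ratios were -1.82, -1.23, 0.06, -0.62, -0.43, 0.47 and 0.50 in time order. The size of the change came from low early values more than from high late ones. The 0 h array carries the same label in both channels, so the value of -1.82 there is a departure between samples of one description. Without the 0 h and 9.5 h arrays the fitted change was 0.80 (adjusted p = 0.227), and dropping either late array also ended the call (adjusted p = 0.069 for 18.5 h and 0.0608 for 20.5 h).

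The helper enzymes act on the double bonds of unsaturated fatty acids. SPS19 (YNL202W), the dienoyl-CoA reductase, had log2 ratios of -0.24, -0.08, -0.11, -0.10, 0.23, 0.94 and 1.26. It was flat to 13.5 h and then higher on each array, and it rose by 1.27 ± 0.21 (2.40-fold, limma adjusted p = 0.00139), also with any 1 array left out. ECI1 (YLR284C), the enoyl-CoA isomerase, had -0.53, -0.68, -0.40, 0.14, -0.14, 1.29 and 0.60.

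ECI1 was the highest oxidation gene at 18.5 h and fell back by 0.69 to 20.5 h, still above its earlier values. It rose by 1.42 ± 0.28 (limma adjusted p = 0.00314), also with any 1 array left out. DCI1 (YOR180C), its relative, was blank at 9.5 h and stood at -0.07, 0.40, 0.16, 0.01, 0.41 and 0.53 on the other arrays. Its late values barely passed the 0.40 at 11.5 h. When genes with up to 2 blanks were let in, the median of the oxidation genes went from 1.25 to 0.99 and the count of risen genes stayed at 6.

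**Figure D3:**
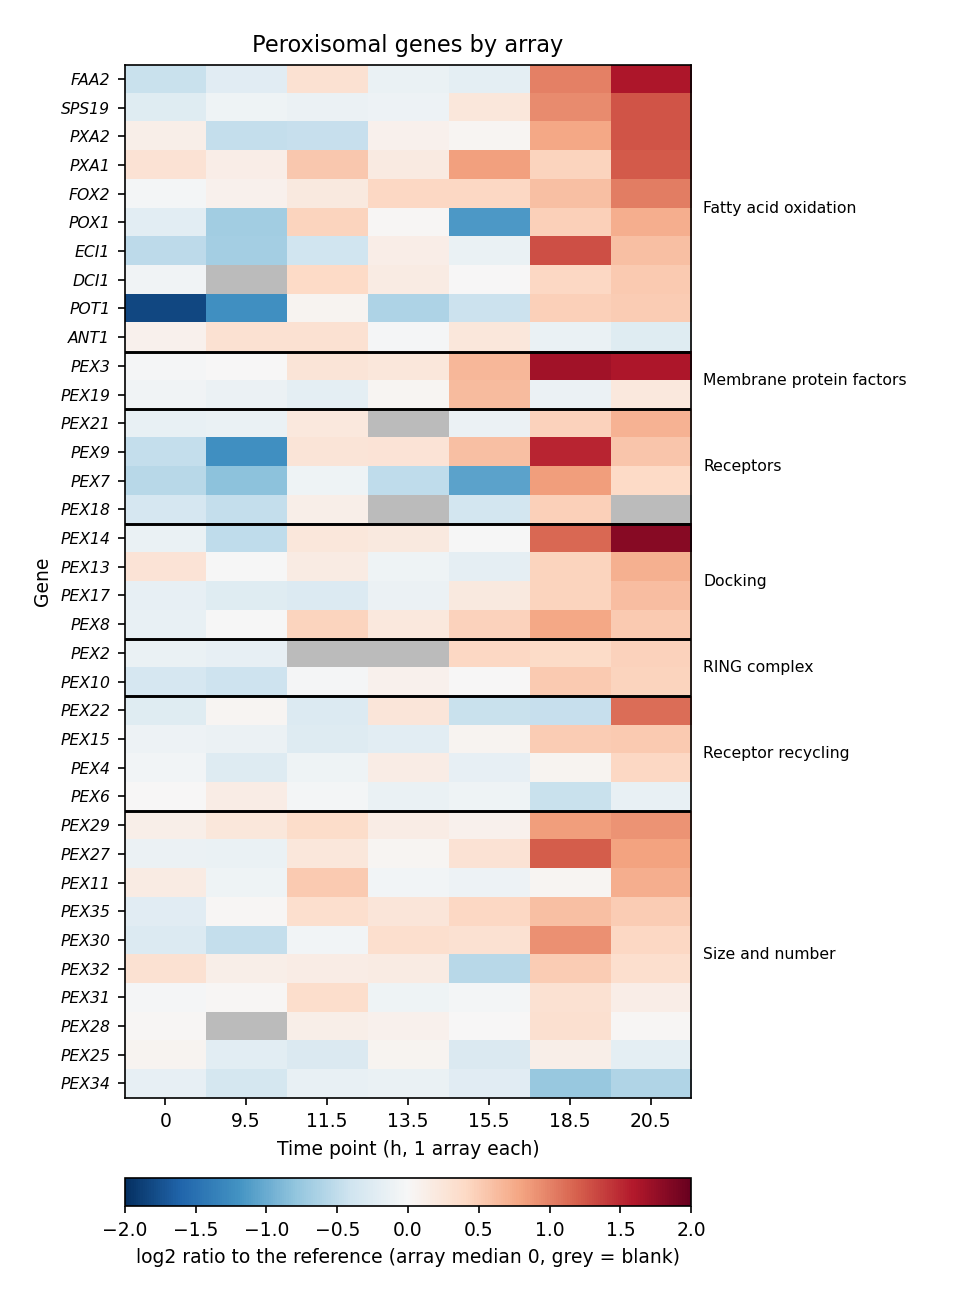
Centred log2 ratio (colour, red above and blue below the reference, grey for a blank) of each of the 36 genes (rows, by role) on each of the 7 arrays (columns, h). The darkest red cells are PEX14 at 20.5 h, at 1.82, and PEX3 at 18.5 h, at 1.68, and the darkest blue cell is POT1 at 0 h, at -1.82.

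Among the biogenesis genes PEX3 led. PEX3 (YDR329C) encodes the membrane anchor needed to form peroxisomes at all. Its log2 ratios were -0.03, 0.00, 0.25, 0.22, 0.66, 1.68 and 1.61 from 0 h to 20.5 h. The rise was under way at 15.5 h, and the late arrays were alike. PEX3 had the largest fitted change in size of all tested members, 1.61 ± 0.20 (3.05-fold, limma adjusted p = 3.37e-04). It passed in all 14 alternative settings, the one tested member to do so.

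PEX19 (YDL065C), the chaperone that carries membrane proteins to Pex3, did not share that profile. It had -0.07, -0.11, -0.19, 0.04, 0.64, -0.12 and 0.21, with its one high value at 15.5 h. The fitted change was 0.26 ± 0.25 (limma adjusted p = 0.433).

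The 2 receptor genes measured on all arrays were low at 0 h and 9.5 h and highest at 18.5 h. PEX9 (YMR018W), a receptor related to Pex5 that imports a small set of proteins, had -0.48, -1.22, 0.25, 0.27, 0.60, 1.52 and 0.56. PEX7 (YDR142C), the receptor for N-terminal signals such as that of the thiolase, had -0.56, -0.82, -0.08, -0.51, -1.07, 0.83 and 0.40. Both were among the lowest members at 9.5 h, and PEX7 was the lowest biogenesis gene at 15.5 h, where POX1 was the lowest oxidation gene.

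PEX9 rose by 1.58 ± 0.40 (limma adjusted p = 0.0104). The call was lost when the 18.5 h array was dropped (adjusted p = 0.0854), and when those of 0 h and 9.5 h both were (0.91, adjusted p = 0.147). PEX7 did not pass (1.0 ± 0.40, adjusted p = 0.0691), but with the 11.5 h array dropped it did (1.21, adjusted p = 0.044), and likewise with 15.5 h dropped (1.19, adjusted p = 0.00416). The co-receptors of Pex7 had blanks. PEX21 (YGR239C) stood at -0.15, -0.14, 0.21 and -0.12 on its early arrays, 0.46 at 18.5 h and 0.70 at 20.5 h. PEX18 (YHR160C) ranged from -0.48 to 0.12 early and was 0.47 at 18.5 h, with no value at 20.5 h.

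Of the 4 docking genes 3 rose, against 19.5% of all genes, with a median fitted change of 0.69 over the 4. PEX14 (YGL153W), the core docking protein, had log2 ratios of -0.14, -0.51, 0.22, 0.20, -0.01, 1.15 and 1.82, and its last value was the highest of any member on any array. It rose by 1.58 ± 0.33 (2.99-fold, limma adjusted p = 0.00443), also with any 1 array left out. PEX17 (YNL214W), a smaller partner of Pex14, moved less.

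PEX17 had -0.16, -0.24, -0.27, -0.12, 0.20, 0.45 and 0.62, and rose by 0.79 ± 0.18 (limma adjusted p = 0.00665). PEX8 (YGR077C), which links docking to the RING complex, had -0.15, -0.01, 0.44, 0.21, 0.46, 0.77 and 0.53. Its call was narrow (0.60 ± 0.21, adjusted p = 0.0465, limma) and held only without the 11.5 h or the 15.5 h array when 1 array was left out. PEX13 (YLR191W), the other docking protein, had 0.44 and 0.71 on the late arrays after at most 0.27, and did not pass (0.40 ± 0.25, adjusted p = 0.217).

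The RING complex attaches ubiquitin to the receptors. PEX10 (YDR265W), averaged over 2 spots, had -0.33, -0.42, -0.02, 0.09, 0.00, 0.53 and 0.45 and rose by 0.73 ± 0.20 (limma adjusted p = 0.0167). Its value at 13.5 h is that of a single spot, since the other was blank there. Dropping the array of 0 h, 9.5 h or 18.5 h ended the call, with adjusted p of 0.0608, 0.0646 and 0.0688. PEX2 (YJL210W), with 2 blanks, stood at -0.14 and -0.16 early, 0.42 at 15.5 h, 0.39 at 18.5 h and 0.46 at 20.5 h, so its step came before the late arrays.

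Of the 4 genes that pull receptors back out 1 rose, against 19.5% of all genes. PEX15 (YOL044W), the membrane anchor of the ATPase Pex6, had -0.10, -0.12, -0.26, -0.21, 0.05, 0.51 and 0.53, and rose by 0.70 ± 0.19 (limma adjusted p = 0.0163; 0.0622 without the 18.5 h and 0.0575 without the 20.5 h array). PEX6 (YNL329C), the ATPase it anchors, stood at -0.45 and -0.15 on the late arrays. Both lay below its 5 earlier values, but the lowest of those was -0.14, so the 20.5 h value did so by little. PEX6 did not pass (-0.33 ± 0.19, limma adjusted p = 0.191). Anchor and ATPase thus had fitted changes of opposite sign, though the difference between them was not tested. PEX22 (YAL055W) anchors the ubiquitin-conjugating enzyme Pex4.

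PEX22 had -0.24, 0.04, -0.27, 0.24, -0.45, -0.46 and 1.11, a gain of 1.56 between the last 2 arrays that no other member came near. It did not pass (0.37 ± 0.41, limma adjusted p = 0.487), and was fitted at -0.40 without the 20.5 h array. PEX4 (YGR133W) was 0.06 at 18.5 h and 0.42 at 20.5 h after values from -0.26 to 0.15, and did not pass (0.32 ± 0.21, adjusted p = 0.248).

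The 10 genes that set the size and number of peroxisomes had the lowest median of these roles, 0.18 over 9 tested. Of these 9 genes 2 rose, a share near the 19.5% of all genes. The other biogenesis roles had only 1 to 4 tested genes each. PEX27 (YOR193W), a relative of PEX11 in peroxisome division, had -0.11, -0.13, 0.22, 0.04, 0.29, 1.21 and 0.81. PEX30 (YLR324W), a regulator of peroxisome formation at the endoplasmic reticulum, had -0.28, -0.47, -0.05, 0.33, 0.31, 0.92 and 0.42. Both were highest at 18.5 h. PEX27 rose by 1.04 ± 0.22 (limma adjusted p = 0.00458), also with any 1 array left out, and PEX30 by 0.93 ± 0.23 (adjusted p = 0.011; 0.0717 without the 18.5 h array).

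Relatives of these genes differed from them in value. PEX11 (YOL147C), the best known factor for peroxisome proliferation, had 0.17, -0.08, 0.53, -0.06, -0.10, 0.04 and 0.73, with the one late high value at 20.5 h, and did not pass (0.18 ± 0.28, limma adjusted p = 0.63). PEX25 (YPL112C), of the same family as PEX11 and PEX27, stayed between -0.29 and 0.11 on all arrays (0.04 ± 0.21, adjusted p = 0.893). In that family of 3 genes 1 rose, against 19.5% of all genes, and the differences between the 3 were not tested. PEX31 (YGR004W) and PEX32 (YBR168W), relatives of PEX30, were both fitted at 0.11, with late values between 0.13 and 0.50.

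PEX29 (YDR479C) was 0.84 and 0.90 on the late arrays after 0.08 to 0.36 and just missed the threshold (0.61 ± 0.23, limma adjusted p = 0.0539; 0.0126 without the 15.5 h array). Its relative PEX28 (YHR150W) was 0.32 and 0.02 after 0.00 to 0.12, with 1 blank. PEX35 (YGR168C) also just missed it (0.54 ± 0.20, adjusted p = 0.0567; 0.0366 without the 11.5 h array). PEX34 (YCL056C), an integral membrane protein that affects peroxisome number, was below the reference on all 7 arrays.

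PEX34 stood at -0.16, -0.35, -0.15, -0.13, -0.23, -0.76 and -0.60, so its late values were the lowest of the biogenesis genes. The fitted change of -0.45 ± 0.20 did not pass (limma adjusted p = 0.0935). When the 18.5 h and 20.5 h arrays were set against the 5 earlier ones in place of the glucose regression, it fell (-0.47, adjusted p = 0.0366), where 20.6% of all genes fell. PEX13, PEX29 and PEX7 rose in that comparison (adjusted p = 0.0395, 0.00801 and 0.0055) and PEX8, PEX9 and PEX30 did not pass. The counts there were 6 of 9 oxidation and 9 of 22 biogenesis genes risen, with 19.0% of all genes.

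Most members of both groups stepped up between 15.5 h and 18.5 h. Both late arrays lay above all earlier values in 8 of 10 oxidation genes, all but PXA1 and ANT1. They did so in 14 of 25 biogenesis genes with both late values. Among the members tested, which have no blank, these counts were 7 of 9 and 13 of 22, against 25.0% of the 4807 tested genes. Both lay below all earlier ones in ANT1, PEX6 and PEX34, against 27.5%. From 15.5 h to 18.5 h the log2 ratio went up in 8 of 10 oxidation genes (median 0.73) and 21 of 26 biogenesis genes (median 0.43), against 49.2% of all genes (median -0.01). The step was at least 2-fold in POX1, ECI1, FAA2, PEX7, PEX14, PEX32 and PEX3, that is 3 of 10 and 4 of 26, against 9.94% of all genes. POX1, PEX7 and PEX32 stepped up from low values at 15.5 h.

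From 18.5 h to 20.5 h 8 of 10 oxidation genes and 13 of 25 biogenesis genes went up, against 46.5% of all genes. The median moves were 0.28 and 0.02. With 1 array at each time the further climb of the oxidation genes could not be tested. At 18.5 h 2 of 10 oxidation genes (ECI1 and FAA2) and 4 of 26 biogenesis genes (PEX3, PEX9, PEX27 and PEX14) were at least 2-fold above the reference, where 11.9% of all genes were. At 20.5 h these counts were 5 of 10 (FAA2, SPS19, PXA2, PXA1 and FOX2) and 3 of 25 (PEX14, PEX3 and PEX22), where 11.0% were. No member was 2-fold below on either late array, where 11.7% and 11.4% of all genes were.

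**Figure D4:**
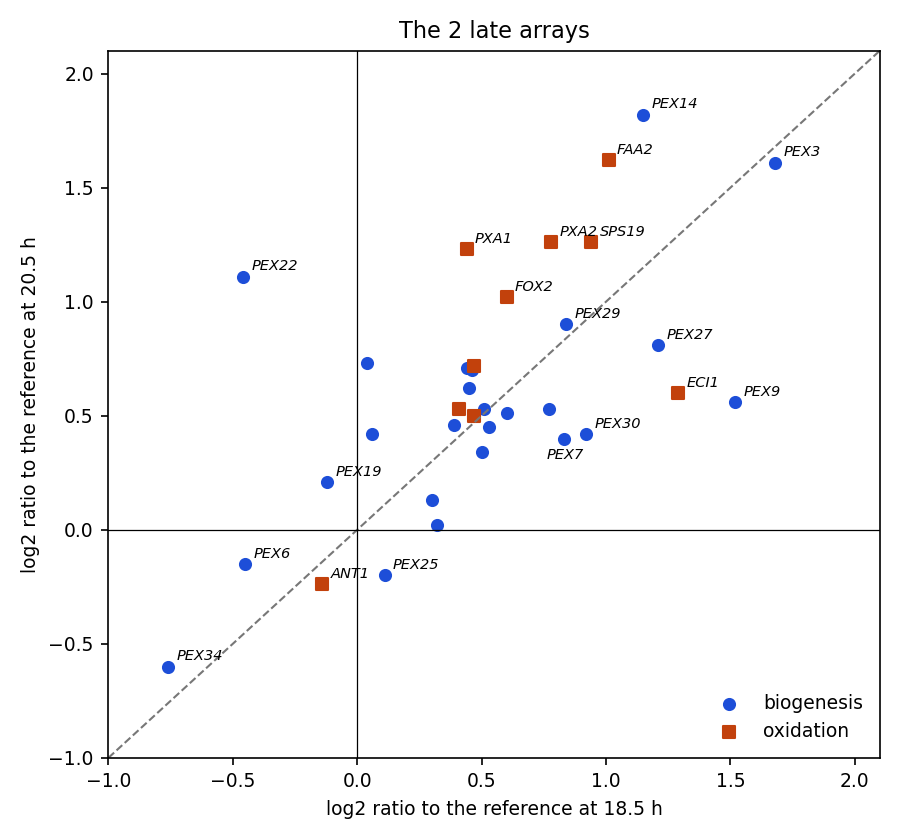
Log2 ratio to the reference at 18.5 h (x) and at 20.5 h (y) for the 35 genes with both values, squares for oxidation and circles for biogenesis, with the line of equal values dashed. PEX22 stands far above the line (-0.46 and 1.11), PEX9 (1.52 and 0.56) and ECI1 (1.29 and 0.60) below it, and 8 of 10 oxidation genes above it.

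Genes related to the peroxisome, some of which act outside it, gave a mixed picture. Of 34 tested genes in 4 related lists 13 rose and 5 fell, against the 19.5% and 19.0% of all genes given above. Among the regulators 1 of 6 rose: ADR1, the activator of glucose-repressed genes, by 1.52 ± 0.30 (limma adjusted p = 0.0033), from 0.21 at 15.5 h to 1.07 at 18.5 h and 1.87 at 20.5 h. The oleate factor genes OAF1 (-0.40 ± 0.26, adjusted p = 0.239) and PIP2 (0.15 ± 0.24, adjusted p = 0.648) did not pass, nor did SNF1, the kinase gene of glucose derepression (0.03 ± 0.20).

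Of 15 other peroxisomal enzyme genes 6 rose and 1 fell, with a median of 0.99. CAT2, carnitine acetyltransferase, rose by 2.13 ± 0.48 and IDP3, the peroxisomal isocitrate dehydrogenase that supplies the reductase Sps19 with NADPH, by 1.92 ± 0.41. CIT2, the citrate synthase of the glyoxylate cycle, rose by 1.90 ± 0.59 (limma adjusted p = 0.0281). These 3 genes reached 2.40, 2.43 and 2.58 at 20.5 h, above every oxidation gene. MLS1 and TES1 of this list were not tested because of a blank, and MLS1 stood higher still at 20.5 h, at 3.51. PNC1 (2.16 ± 0.28) and GPD1 (1.70 ± 0.24), enzymes that share the peroxisome with other places, stood at 1.39 and 1.2 as early as 13.5 h, when the oxidation median was 0.05. PCS60 also rose, NPY1 fell by 0.83 ± 0.21, and CTA1, the peroxisomal catalase gene, just missed the threshold (1.22 ± 0.46, adjusted p = 0.0558).

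Acyl-CoA synthetases outside the peroxisome split. FAA1 rose by 0.98 ± 0.20 (limma adjusted p = 0.00368), while FAA4 fell by 1.76 ± 0.21 (adjusted p = 2.59e-04) and FAA3 by 0.81 ± 0.19 (adjusted p = 0.00807). With FAA2 that makes 2 risen and 2 fallen synthetase genes. The mitochondrial carnitine carrier gene CRC1 rose by 2.78 ± 0.36 and YAT2 by 2.27 ± 0.74 (adjusted p = 0.0339), while YAT1 did not pass (0.07 ± 0.20). Of 7 genes of division, inheritance and turnover 3 rose and 2 fell.

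The dynamin genes went apart, DNM1 rising by 1.12 ± 0.18 (limma adjusted p = 0.00111) and VPS1, the main dynamin of peroxisome fission on glucose, falling, at -0.90 ± 0.30 (adjusted p = 0.0373). FIS1, the membrane adaptor of Dnm1, fell by 1.28 ± 0.23 (adjusted p = 0.002). ATG36, the receptor for the selective breakdown of peroxisomes, rose by 1.10 ± 0.30 (adjusted p = 0.0149), as did VPS34, a lipid kinase gene of autophagy, by a fitted 1.21 ± 0.29 (adjusted p = 0.00782). With the 0 h and 9.5 h arrays both dropped, 7 of the 34 rose and 1 fell, where 7.74% of all genes rose. The share of all genes that fell in that setting is not given here.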

How the data were processed

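The deposited values are log2 ratios of the 2 channels of each array. Per the labels, the scanning software was ScanAlyze version 2.41. The sources used here do not give background correction, dye normalization, spot filters or the reason for blanks. The base was taken as log2 from the values, since whole-number ratios leave peaks on a log scale: 13 values fell on 62 log2 positions of such ratios against 1.88 by neighbouring positions, with 14 against 12.12 for the natural log and 172 against 147.38 for log10.

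Of 6400 probes 5548 had 1 gene symbol, 0 several and 852 none, and all 5548 matched a RefSeq gene by Entrez ID. The arrays held 6048 to 6342 values, with deposited medians from -0.033 to 0.216, and their number limits the precision. Each array was centred on its median, and spots of one gene were averaged (75 genes). The regression used limma 3.58.1 (lmFit, eBayes, R 4.3.3) on the share of glucose consumed, with 5 residual and 5.46 prior degrees of freedom. It was also run on simulated straight-line changes with independent noise. That setting does not cover profiles far from a line or neighbouring samples that depend on each other. Alternatives were no centring, centring within runs of 40 probe IDs, hours, log2 OD, late against earlier arrays, leaving out arrays, and allowing blanks. Array titles gave the time point. Every member is named, with the related genes that passed, up to 4 per list by size, and those a comparison turns on. Members and lists were chosen with earlier results of these data known. The labels give each array a lot of its own, so time, OD, glucose and lot cannot be told apart.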

Additional observations from a re-analysis of the deposited data

How the results depend on the processing

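The direction of the group medians at 18.5 h and 20.5 h held without centring, with centring within runs of 40 probe IDs and relative to the 0 h array. With hours in place of glucose 1 oxidation and 1 biogenesis gene rose, and of the related lists 5 rose and 2 fell. With log2 OD 6 related genes rose and 2 fell. Without both the 0 h and the 9.5 h array 2 oxidation, 1 biogenesis and 7 related genes rose, where 7.74% of all genes rose. In that setting 1 related gene fell, and the share of all genes that fell is not given here. The difference of medians there was 0.29. Late against earlier arrays, 1 biogenesis gene fell. Leaving out 1 array gave 3 (without 20.5 h) to 7 oxidation genes risen, 4 (without 18.5 h) to 11 biogenesis genes, and 8 (without 20.5 h) to 16 related genes. Of the 15 members that rose 7 passed with any 1 array left out: ECI1, PEX14, PEX17, PEX27, PEX3, PXA2 and SPS19. The share of all genes called with hours, with log2 OD or with 1 array left out is not given here. The causes were not tested. As deposited, 3 oxidation and 7 biogenesis genes were at least 2-fold above the reference at 18.5 h, and 5 and 4 at 20.5 h. The deposited medians of these arrays were 0.216 and 0.185, so without centring every gene stands higher. The share of all genes at least 2-fold above without centring is not given here.

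Sign changes were seen only in members that did not pass. PEX19 was -0.02 late against earlier arrays. PEX25 was -0.11 with hours and -0.03 with log2 OD, PEX32 -0.03 and -0.04, and PEX31 -0.15 with centring within runs. Leaving out 1 array gave PEX11 -0.20 to 0.37, PEX22 -0.40 to 0.92, PEX25 -0.12 to 0.14, PEX31 -0.01 to 0.23 and PEX32 -0.13 to 0.24. No paired analysis was possible because each time point had 1 array. A table of ratios holds no signal over background, so dim spots could not be told from bright ones.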

Other observations

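The 0 h array, whose 2 channels share a label, should give values near 0. On it POT1 stood at -1.82, PEX7 at -0.56, ECI1 at -0.53 and PEX9 at -0.48, while all other members lay between -0.44 and 0.31. The -0.44 was FAA2, little above PEX9. The SD over all tested genes on that array was 0.28. The 4 genes stood low at 9.5 h too, at -1.23, -0.82, -0.68 and -1.22, but so did POX1, at -0.70. The 0 h and 9.5 h arrays correlated across all probes (r = 0.60, a description over probes that are not independent). Set against the 0 h array in place of the reference, POT1 stood at 2.32 at 20.5 h and PEX9 at 2.0 at 18.5 h.

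PEX10 was the one member with 2 spots. They read -0.37 and -0.28 at 0 h, -0.61 and -0.23 at 9.5 h, -0.03 and -0.01 at 11.5 h, at 15.5 h -0.31 and 0.30, at 18.5 h 0.32 and 0.74, and at 20.5 h 0.14 and 0.76. At 13.5 h the first spot was blank and the second read 0.09.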
